A study of Mus musculus with 57 samples.

Results

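The genes described here encode the machinery that carries new secretory and membrane proteins into the endoplasmic reticulum (ER), folds them and sends them on in coated vesicles. They were chosen by name, as a list of 52 genes of the ER translocon, signal peptidase, folding enzymes and the COPII and COPI vesicle coats. Of the 52, 51 were present and tested in the gland table and in the end bud table, each of 35275 genes. All 52 were present in the TORIN1 table of 54532 genes and in the Erbb3 knockout table of 53608 genes, and 51 were tested in each. The culture table of 5179 genes held 29 of them, and the same 29 were in all 5 tables. Srp54b, a subunit of the signal recognition particle with near-identical copies, was in the TORIN1 and knockout tables only and did not pass the filter on low counts in either.

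A protein bound for secretion is recognised by the signal recognition particle as it leaves the ribosome, is docked at its receptor and is threaded through the Sec61 channel. Signal peptidase removes the leader, chaperones and disulphide isomerases fold the chain, and chains that fail are returned to the cytosol for degradation. COPII vesicles carry cargo from the ER towards the Golgi, COPI vesicles return escaped ER residents, and the unfolded protein response raises much of this machinery when folding demand is high. Salivary acinar cells are professional secretory cells with a large ER.

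RNA sequencing of the embryonic mouse salivary gland was deposited for 57 samples in 5 sets, with total RNA as input. The stage series held freshly dissected, untreated wild-type glands at each of 6 embryonic days, E13 to E18, 4 samples a day. The end bud set held separated wild-type epithelia titled E13 (3 control and 3 NRG1) and E14 (2 control and 3 NRG1), kept with or without NRG1, the neuregulin ligand of the receptor ERBB3. Their labels give 4 h, except that of E14 NRG1 C, which gives 72 h although its count column is named in the same pattern as the others. The TORIN1 set held wild-type E13 epithelia after 72 h with TORIN1, which inhibits the growth kinase mTOR, or with its solvent DMSO, 4 samples each.

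The knockout set held E16 glands labelled WT or Erbb3 KO, 4 samples each. The culture set held E13 epithelia kept in NRG1 for 48, 72 or 96 h (culture days 2, 3 and 4), 2 samples each. Separation for culture is meant to free the epithelium of its mesenchyme, nerves and vessels. End buds titled E14 still held RNA of mesenchyme and vessel markers, with values given further on. The labels name the mutant genotype KO and give neither the allele nor whether its loss was limited to a cell type. In whole glands, fewer cells of a type and less RNA per cell cannot be told apart. The labels do not tie replicates to different animals, litters or cultures. A p-value here therefore reflects only how much the sequenced samples varied, and that variation may be technical.

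Levels are given as CPM, a gene's counts scaled to a common library size with TMM factors, and as mean ± SD where a group is summarised. A gene was called higher or lower at a Benjamini-Hochberg adjusted p under 0.05 over all genes tested in its table, from edgeR's quasi-likelihood test. Log2 fold changes carry their standard error (SE). For each comparison the share of all tested genes called in the same direction is given as the background.

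Libraries of the stage series held 13033868 to 25935489 counts, those of end buds 16027377 to 26306020, those of the TORIN1 set 16318997 to 19671988 and those of the knockout set 8913271 to 11890488. Epithelial Epcam was at 1075 to 1477 CPM in the cultured epithelia of the TORIN1 set, where mesenchymal Pdgfra was at most 14.16 CPM. End buds had Epcam at 720.5 to 972.6 CPM, with Pdgfra at 15.77 to 27.42 CPM in those titled E13 and 63.76 to 231.7 CPM in those titled E14. E13 glands had Pdgfra at 384.0 to 437.8 CPM beside Epcam at 213.3 to 229.8 CPM. The E18 D library stood apart from the other E18 libraries. Its TMM factor was 0.7007 against 0.8642 to 0.8943, its summed mesenchyme markers were 5297 CPM against 9586 to 11720 CPM, and its summed erythroid markers were 13780 CPM against 3038 to 4586 CPM. Values that it moved by over 1.5 times, and calls that it decided, are given with and without it.

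Promoter sequences, 250 bases before to 50 bases after each gene's start, were matched for 44 of the 52 genes from RefSeq on GRCm38.p6. The ER stress response element (ERSE) was searched on both strands as CCAAT and CCACG with 9 bases between them. It was present in 8 of the 44 promoters (18.18%) and in 39 of 32851 promoters of all genes (0.119%). Those 8 were Hspa5, Hsp90b1, Calr, Canx, Dnajc3, Creld2, Pdia6 and Ero1lb. A letter match describes the sequence and does not show a bound site. The stretches around the match are shown for 5 of these genes because their RNA levels went in different directions in the comparisons that follow. Each is written 5′ to 3′ on the strand of its gene with the match in capitals, and a match on the other strand reads CGTGG first. Hspa5 lies at chr2:34772010-34772058 (plus strand), Canx at chr11:50325785-50325833 (minus strand), Dnajc3 at chr14:118937812-118937860 (plus strand), Creld2 at chr15:88819505-88819553 (plus strand) and Ero1lb at chr13:12565667-12565715 (plus strand).
Hspa5: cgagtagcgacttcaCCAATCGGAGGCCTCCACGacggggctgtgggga
Canx: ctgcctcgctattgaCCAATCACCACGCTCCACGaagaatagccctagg
Dnajc3: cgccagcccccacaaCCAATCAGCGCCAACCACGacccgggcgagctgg
Creld2: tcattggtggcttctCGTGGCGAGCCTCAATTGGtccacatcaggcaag
Ero1lb: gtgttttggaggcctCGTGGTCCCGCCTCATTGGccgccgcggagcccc

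The match ended 47 bases before the start of Hspa5, 87 before Dnajc3, 108 before Creld2, 127 before Canx and 183 before Ero1lb. Hsp90b1 held 2 matches. The related ERSE-II (ATTGG and CCACG with 1 base between) was found in Dnajb11 and Herpud1 among these genes and in 0.037% of all promoters. The core TGACGTG of the unfolded protein response element was found in 6 of the 44 promoters, among them Hspa5, Sec24d and Kdelr3, and in 2.012% of all promoters.

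The stage series asks how the machinery changes while the gland builds acini. Between E13 and E18, 35 of the 51 tested genes rose and 7 fell, where 36.5% of all tested genes were called higher and 36.2% lower. The median log2 fold change of the 51 genes was 0.60, against 0.01 over all tested genes. All 9 tested genes of translocation and signal recognition, 4 of 5 of signal peptidase and all 3 of degradation rose. Cargo receptors and COPII genes, a group that here includes Nucb2, had 5 higher and 1 lower of 7. Chaperones had 6 higher and 3 lower of 11. With only these 2 stages in the fit, 3 of the 51 were lower, namely Canx, Pdia4 and Sec24d. The summed level of the 51 genes was 10520 to 11060 CPM at E13, 9155 to 9926 CPM at E15, 14780 to 15320 CPM in E18 A to C and 18910 CPM in E18 D. Scaling by total counts in place of TMM shifted the median of all genes by -0.34 and called 24 of these genes higher and 14 lower. With that scaling, 4334 of all 16521 tested genes were called higher and 7906 lower.

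**Figure D1:**
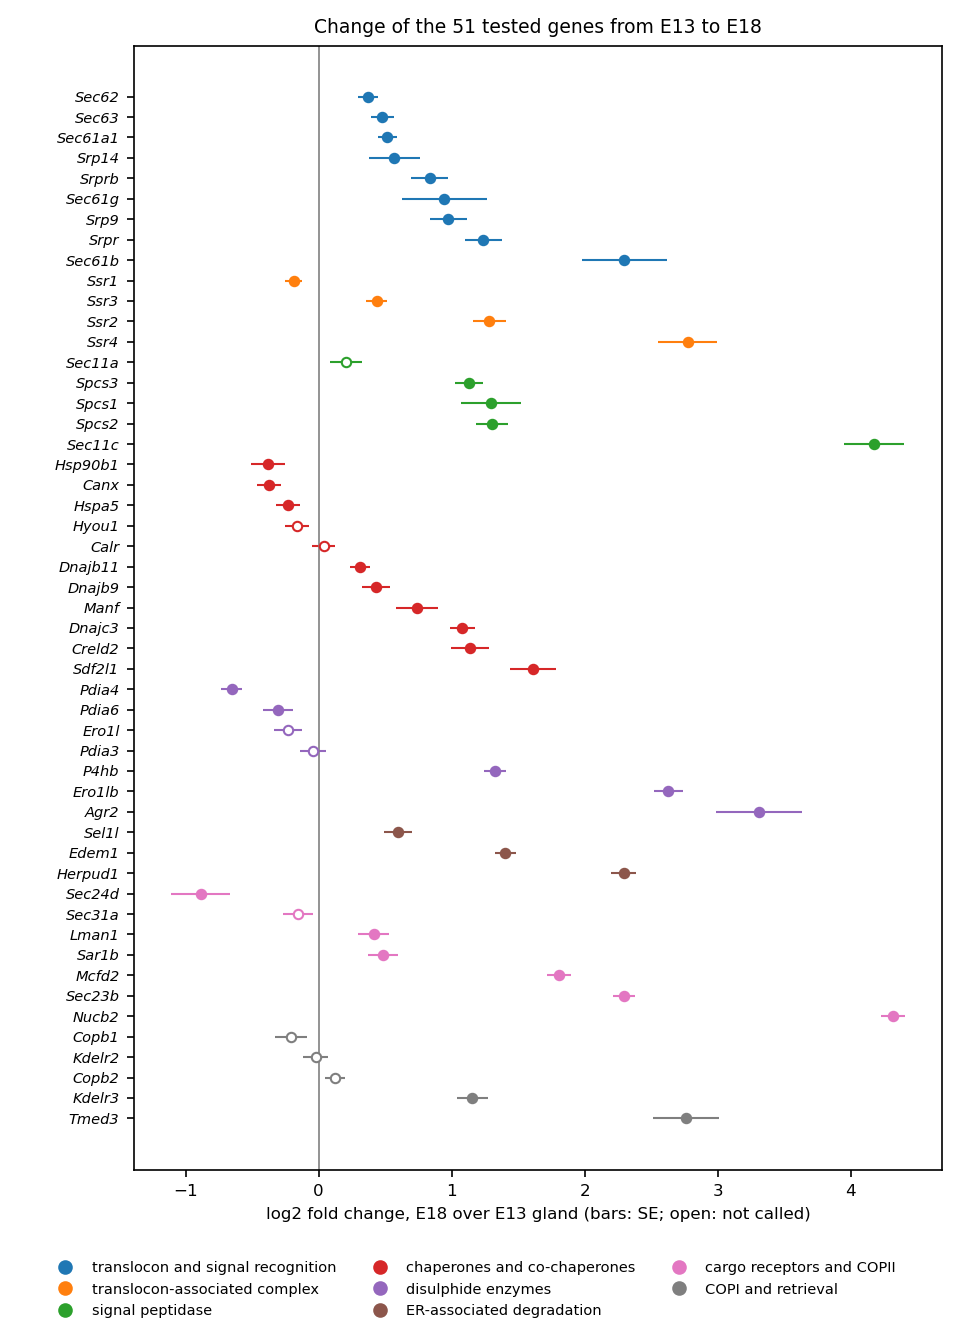
Log2 fold change of E18 over E13 glands (x axis, with SE bars) for each of the 51 tested genes (y axis), coloured by role, with open symbols for genes not called. All 9 translocon and signal recognition genes lie to the right of 0, whereas chaperones and disulphide enzymes lie on both sides, from Pdia4 at -0.65 to Agr2 at 3.31. Under total-count scaling Dnajb11 moves from 0.31 to -0.04.

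All 9 tested genes of the channel and of signal recognition rose from E13 to E18, by a median of 0.83 on the log2 scale. Sec61a1, the pore-forming subunit of the channel, had 403.9, 379.3, 383.6 and 386.8 CPM in the 4 E13 glands and 559.8, 570.5, 602.7 and 487.6 CPM at E18. The stages did not overlap, and the log2 fold change was 0.52 ± 0.07 (SE, adjusted p = 7.8e-07). With total-count scaling the change of Sec61a1 was 0.18 (adjusted p = 0.081), and Sec61g, Sec62, Sec63 and Srp14 also lost their call. Sec61b, a small subunit of the channel, had 110.6 to 120.5 CPM at E13 and 399.5, 369.6, 381.6 and 1114 CPM at E18, so E18 D was far above the rest. Its log2 fold change was 2.30 ± 0.32 with E18 D and 1.74 without it. Sec61g, the third subunit, rose by 0.94 ± 0.32 (adjusted p = 0.011), but the value without E18 D was 0.53 (adjusted p = 0.13), and Srp14, a subunit of the signal recognition particle, likewise had 0.17 (adjusted p = 0.14) without it. The receptor subunits Srpr and Srprb rose by 1.24 ± 0.14 and 0.83 ± 0.14.

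Of the 4 genes of the translocon-associated complex, whose subunits sit beside the channel, 3 rose and 1 fell. Ssr4 had 64.63 to 72.26 CPM at E13 and 412.9, 327.9, 366.2 and 786.1 CPM at E18, again with E18 D the highest. It rose by 2.77 ± 0.22 (adjusted p = 1.6e-10), and by 2.42 without E18 D. Ssr2 rose by 1.28 ± 0.12 and Ssr3 by 0.44 ± 0.08, and Ssr3 lost its call with total-count scaling. Ssr1 fell by 0.19 on the log2 scale (adjusted p = 0.011), a call that was lost without E13 D (adjusted p = 0.052). With a length trend removed, an alternative described with the lengths further on, Ssr1 was higher, at 0.34 (adjusted p = 0.0031).

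Signal peptidase has alternative catalytic subunits, Sec11a and Sec11c. Sec11c had 12.59, 12.89, 12.81 and 17.15 CPM at E13 and 203.3, 172.7, 193.3 and 434.7 CPM at E18. Every E18 gland was above every E13 gland, with a log2 fold change of 4.17 ± 0.22 (adjusted p = 1.3e-13) and 3.77 without E18 D. Sec11a had 116.8 ± 2.01 CPM at E13 and 134.7 ± 31.5 CPM at E18, overlapping ranges, with a log2 fold change of 0.20 ± 0.12 (adjusted p = 0.13). Per kilobase of exon, Sec11c had a mean of 2.04 RPKM at E13 and 36.9 ± 18.1 RPKM at E18, beside 25.3 and 29.2 ± 6.83 RPKM for Sec11a. The difference between the changes of the 2 genes was not tested. The accessory subunits Spcs1, Spcs2 and Spcs3 rose by 1.29 ± 0.22, 1.30 ± 0.12 and 1.13 ± 0.10, and Spcs1 by 0.84 without E18 D.

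Of the 11 chaperones and co-chaperones, 6 rose and 3 fell. Hspa5 (BiP), the ER chaperone of the HSP70 family, had 984.9, 1007, 912.4 and 1005 CPM at E13 and 802.0, 778.7, 791.1 and 959.1 CPM at E18. Only the E18 D value reached into the E13 range. Hspa5 fell by 0.23 ± 0.09 on the log2 scale (adjusted p = 0.023), and this call was lost when E13 A, B or D or E18 A, B or C was left out (adjusted p up to 0.084). Hsp90b1 (GRP94), the HSP90 of the ER, had 573.5 to 630.0 CPM at E13 and 383.9, 426.6, 410.4 and 657.0 CPM at E18. It fell by 0.38 ± 0.13 (adjusted p = 0.0094), and by 0.59 without E18 D, whose value lay above the E13 glands. The call of Hsp90b1 was lost with only E13 and E18 in the fit. Canx, the membrane-bound lectin chaperone, fell by 0.37 ± 0.09. Calr, its soluble relative, was at 1131 ± 45.9 CPM and 1160 ± 36.6 CPM, a log2 difference of 0.04 ± 0.08 (adjusted p = 0.70).

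Several co-chaperones and smaller folding factors rose. Sdf2l1, an ER protein that works with HSP40 co-chaperones, had 27.29 to 30.93 CPM at E13 and 88.23, 69.01, 73.01 and 127.8 CPM at E18. It rose by 1.61 ± 0.17 (adjusted p = 1.3e-08). Creld2, an ER protein induced by ER stress, had 45.76 to 50.26 CPM and then 85.64, 84.93, 95.63 and 153.9 CPM, and rose by 1.14 ± 0.14. The stages did not overlap for either gene. Dnajb9, an HSP40 that limits the stress sensor IRE1, went from 20.80 to 25.70 CPM at E13 to 11.17 to 17.13 CPM at E15 and 30.91 to 33.42 CPM at E18. Its net rise was 0.43 ± 0.10, and 0.09 (adjusted p = 0.50) with total-count scaling. Dnajc3, another HSP40 and an inhibitor of eIF2α kinases, rose by 1.08 ± 0.10, Manf, a secreted ER-stress factor, by 0.74 ± 0.16. Dnajb11, a co-chaperone of BiP, rose by 0.31 ± 0.08 but had -0.04 with total-count scaling.

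Among the genes with an ERSE in the promoter, 3 of 8 rose and 4 fell between E13 and E18, with a median log2 fold change of -0.10. The background was 36.5% higher and 36.2% lower. All 8 belong to the groups of chaperones and of disulphide enzymes, and the part of role was not tested. Of the 35 tested genes with a promoter sequence and no ERSE, 26 rose and 3 fell, with a median of 0.83. The sequences shown for Hspa5 and Canx belong to genes that fell, and those for Dnajc3, Creld2 and Ero1lb to genes that rose. This is a description of the list and was not tested.

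The 7 disulphide enzymes ranged from -0.65 to 3.31 in log2 fold change, with 3 called higher and 2 lower. Agr2, a disulphide isomerase known for its role in mucin folding, had 0.985, 5.65, 2.24 and 1.23 CPM at E13 and 23.06, 21.29, 21.92 and 29.96 CPM at E18. Its E13 counts were low, with a lowest count of 18 reads, and it rose by 3.31 ± 0.32 (adjusted p = 5.3e-09). Ero1lb (ERO1β), an oxidase that recharges disulphide isomerases, had 4.818, 5.429, 5.019 and 6.212 CPM and then 32.99, 35.39, 32.13 and 32.41 CPM, without overlap. It rose by 2.63 ± 0.11 (adjusted p = 5.5e-16). Its paralogue Ero1l (ERO1α) had 51.62 to 56.88 CPM at E13 and 41.20 to 49.58 CPM at E18, with a change of -0.23 ± 0.11 (adjusted p = 0.055). P4hb (PDI), the general isomerase, had 858.8 ± 26.7 CPM and then 2150 ± 135 CPM and rose by 1.32 ± 0.08. Pdia4 fell by 0.65 ± 0.08 (adjusted p = 1.1e-07), from 299.3 to 317.1 CPM at E13 to 186.2 to 208.9 CPM at E18. Pdia6 fell by 0.31 ± 0.11, or by 0.48 without E18 D, a call lost without E13 B or E18 A, B or C. Pdia3, which works with the lectin chaperones, had -0.04 ± 0.10.

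The 3 genes of ER-associated degradation rose. Herpud1, an organiser of the degradation complex, had 32.30 to 40.03 CPM at E13, 65.37 to 72.06 CPM at E16 and 159.6, 166.4, 156.1 and 209.7 CPM at E18. Its log2 fold change was 2.29 ± 0.10 (adjusted p = 4.8e-16). Edem1, which marks misfolded glycoproteins, rose by 1.40 ± 0.08, and Sel1l, the adaptor of the HRD1 ligase, by 0.60 ± 0.10, a call lost with total-count scaling.

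The largest change of the list was that of Nucb2, which was grouped with the cargo receptors and COPII genes but is neither. The next largest in that group was the rise of Sec23b. Nucb2, a calcium-binding protein of the secretory pathway, had stage means of 15.7, 18.1, 29.4, 117.7, 221.8 and 313.3 CPM from E13 to E18. From E15 on, the range of each stage lay above that of the stage before, whereas E13 and E14 overlapped, and the net log2 fold change was 4.32 ± 0.09 (adjusted p = 5.0e-21). Sec23b, a subunit of the inner COPII coat, had 54.11 to 58.03 CPM at E13, 56.32 to 75.69 CPM at E15 and 195.6 to 226.3 CPM at E16, so most of its increase fell between E15 and E16. It rose by 2.29 ± 0.08 over the whole series. Sec24d, a cargo-binding COPII subunit, went the other way, from 98.05 to 102.7 CPM at E13 to 61.66, 69.45, 67.45 and 19.64 CPM at E18. It fell by 0.89 ± 0.22 (adjusted p = 0.0012), and by 0.61 without E18 D. The receptor Lman1 (ERGIC-53) rose by 0.41 ± 0.12, from 204.5 to 214.5 CPM to 309.1, 315.0, 319.7 and 181.5 CPM, so E18 D lay below E13. Its partner Mcfd2 rose by 1.81 ± 0.09. Lman1 and the COPII GTPase Sar1b (0.48 ± 0.11) lost their calls with total-count scaling.

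Of the 5 genes of COPI and retrieval, 2 rose. The KDEL receptor Kdelr3, which returns ER residents, had 22.18 to 27.15 CPM at E13 and 50.06 to 60.30 CPM at E18 and rose by 1.16 ± 0.12 (adjusted p = 4.2e-09). Its paralogue Kdelr2 had 211.5 to 229.0 CPM and then 202.4, 203.1, 196.7 and 266.4 CPM, with a change of -0.02 ± 0.10 (adjusted p = 0.84). The p24 cargo protein Tmed3 had 76.70 to 82.02 CPM and then 420.8, 349.7, 333.3 and 1036 CPM, rising by 2.76 ± 0.25, or by 2.22 without E18 D. The coat subunits Copb1 and Copb2 had -0.21 ± 0.12 and 0.12 ± 0.07, neither called.

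**Figure D2:**
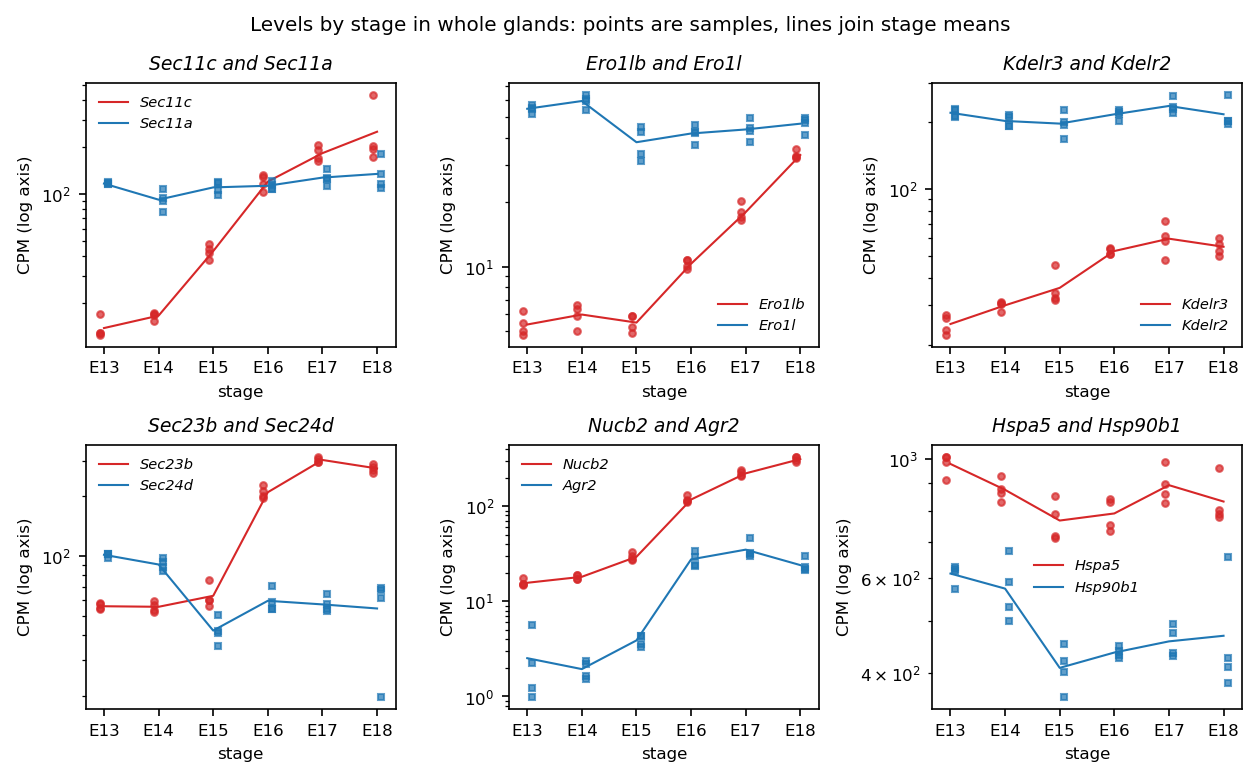
CPM (log y axis) by stage from E13 to E18 (x axis) for 12 genes in 6 panels, with a point per gland and lines through the stage means. Sec11c, Ero1lb, Kdelr3, Sec23b and Nucb2 climb, with the steepest step of Sec23b between E15 and E16, while Sec11a, Kdelr2, Ero1l, Hspa5 and Hsp90b1 stay within a narrow range or end lower. Levels of different genes in a panel are not comparable, since CPM is not divided by gene length.

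Measured per kilobase, Calr (392.7 RPKM), P4hb (300.2 RPKM), Pdia3 (265.8 RPKM) and Hspa5 (231.1 RPKM) led the list at E13. At E18 P4hb led with 751.5 RPKM, followed by Sec61b with 445.5 ± 287.6 RPKM, a mean that E18 D carried, and by Calr with 402.8 RPKM.

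The consecutive stages share samples, so each step is given by its own values. From E13 to E14, Edem1 rose (0.31 ± 0.08) and Pdia6 fell (-0.42 ± 0.11), 1 gene in each direction, where 11.8% of all genes were called higher and 7.63% lower. Without E13 D or without E14 B 2 genes rose, and 0 fell without E14 A and 2 without E14 C. The split was 1 higher and 3 lower with total-count scaling and 1 higher and 2 lower with DESeq2 size factors, and 3 higher and 9 lower with only these 2 stages in the fit. From E14 to E15, 15 genes rose and 18 fell, against a background of 24.7% higher and 25.0% lower. Without E14 A or without E15 A, 8 genes rose. Sec11c rose by 1.37 ± 0.20 and Nucb2 by 0.70 ± 0.08 in that step, while Sec24d fell by 1.10, Ero1l by 0.64 and Copb1 by 0.58.

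The step from E15 to E16 was one-sided. In it 32 of 51 genes rose, against a background of 12.2%, and none fell, against a background of 11.3%. By edgeR's quasi-likelihood test no gene was lower at an unadjusted p under 0.05 either, and DESeq2 called 0 lower. Of the 51 genes, 50 had a positive log2 fold change, with a median of 0.47. Agr2 led with 2.83 ± 0.30, from 3.323 to 4.359 CPM to 23.63 to 33.74 CPM, followed by Nucb2 (2.00 ± 0.08), Sec23b (1.72 ± 0.08), Sec11c (1.48 ± 0.20) and Sec61b (1.26 ± 0.31). Each role group held at least 3 genes that rose. In the same step the summed acinar product markers went from 588.0 to 931.4 CPM to 17650 to 20140 CPM, and the summed epithelial markers from 3058 to 3790 CPM to 5073 to 5661 CPM. Their part in the rise of the ER genes was not tested.

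From E16 to E17, 12 genes rose (background 3.39%) and none fell (background 2.11%), with 0 lower by edgeR's quasi-likelihood test at an unadjusted p under 0.05 and 0 by DESeq2. Nucb2 (0.91 ± 0.08), Ero1lb (0.80 ± 0.10) and Herpud1 (0.63 ± 0.09) led. With only these 2 stages in the fit 24 rose, and 20 with the length trend removed. From E17 to E18, 8 rose (background 5.91%), Tmed3 by 0.93 with E18 D and by 0.39 without it (adjusted p = 0.0057), and Pdia4, Calr and Dnajb11 fell, which makes 3 lower (background 7.09%). Without E18 D, 8 genes fell and Ssr4 lost its call (0.40, adjusted p = 0.067). Without E17 D, 5 rose. With total-count scaling, which shifted the median of all genes by -0.21, the split of the last step was 6 higher and 12 lower, and with DESeq2 size factors it was 10 higher and 2 lower. With only these 2 stages in the fit it was 3 higher and 1 lower. Of all 16521 tested genes, total-count scaling called 450 higher and 3368 lower, and DESeq2 size factors 1131 and 997. The fit of only these 2 stages called 345 and 302 of 15255.

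Over the whole series the marker lists changed too, in both directions. The summed acinar products were 10.16 to 45.82 CPM at E13 and 168500 to 178100 CPM at E18, all 14 of 14 called higher. The summed mesenchyme markers were 14550 to 14770 CPM at E13 and 5297 to 11720 CPM at E18, with 9 of 14 lower and 3 higher, and the summed epithelial markers were 1072 to 1235 CPM and 5284 to 7752 CPM, with 14 of 15 higher. The part of this change in tissue make-up in each gene's change was not tested.

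Genes of the same pathways outside the list were counted from fixed lists. The background for all of these lists between E13 and E18 was 36.5% higher and 36.2% lower. In that comparison, 12 of 18 regulators of the unfolded protein response rose and 3 fell. Ern2, an epithelial form of the stress sensor IRE1, had an absolute log2 fold change of 3.89 ± 0.52. Of 20 other translocation genes 12 rose and 3 fell, with Tram1, which helps chains enter the membrane, at 2.34 ± 0.10. Of 29 other folding genes 17 rose and 10 fell, with Serp1, a stress-induced protein of the translocon, at 2.35 ± 0.09, and of 18 other degradation genes 11 rose and 4 fell, with Derl3 at 5.43 ± 0.19. Other COPII genes had 11 higher and 4 lower of 28, and other COPI genes 15 higher and 6 lower of 27. Of 16 ER genes specific to collagen 2 rose and 12 fell, with a median of -0.76 and with Plod2, a collagen lysyl hydroxylase, at -2.42 ± 0.15. Differences between these lists were not tested.

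The end bud set asks what a short culture with NRG1 does to separated epithelium. With NRG1, 26 of the 51 genes rose in E13 buds and 3 fell, where 23.1% of all tested genes were called higher and 19.3% lower. In E14 buds 28 rose and 1 fell, against a background of 20.2% and 16%. Without E14 NRG1 C, the sample labelled 72 h, 24 rose and 1 fell. The median log2 fold change was 0.19 in E13 buds and 0.28 in E14 buds, against -0.02 and 0.02 over all genes. The summed level of the 51 genes was 6896 to 7123 CPM in E13 controls and 7608 to 8054 CPM with NRG1, and 6743 to 7039 CPM and 7887 to 8124 CPM in E14 buds, without overlap in either. In E13 buds, 17 genes rose without NRG1 A, and 1 fell without NRG1 A or without control B.

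Sec11c had the largest rise in both. Its levels were 8.177, 7.505 and 7.323 CPM in E13 controls and 17.74, 18.77 and 20.70 CPM with NRG1. In E14 buds they were 10.74 and 11.69 CPM against 21.73, 23.05 and 23.18 CPM. No NRG1 sample fell within the control range, with log2 fold changes of 1.31 ± 0.11 (adjusted p = 2.6e-07) and 1.01 ± 0.12 (adjusted p = 1.9e-05).

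Of the 11 chaperones and co-chaperones, 7 rose in E13 buds and 7 in E14 buds. Hspa5 had 342.9, 338.4 and 342.3 CPM in E13 controls and 458.1, 472.2 and 455.3 CPM with NRG1, without overlap. It rose by 0.44 ± 0.05 (adjusted p = 1.2e-05) and, in E14 buds, by 0.56 ± 0.06. Dnajc3 went from 65.59 to 68.71 CPM to 118.6 to 122.4 CPM in E13 buds, a rise of 0.84 ± 0.06. Hyou1, an ER chaperone induced by stress and low oxygen, went from 127.9 to 155.8 CPM to 226.3 to 234.2 CPM, a rise of 0.72 ± 0.08. Manf (0.61 ± 0.07), Sdf2l1 (0.57 ± 0.14), Dnajb11 (0.56 ± 0.08) and Creld2 (0.44 ± 0.09) also rose. Calr, Canx and Hsp90b1 were not called, with 0.08 ± 0.06, 0.03 ± 0.06 and -0.09 ± 0.06. Dnajb9 fell by 0.29 ± 0.11 (adjusted p = 0.047), a call that remained in 1 of 6 fits that each left out a sample.

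Herpud1 had 26.20, 30.67 and 26.16 CPM in E13 controls and 59.09, 53.97 and 49.30 CPM with NRG1. It rose by 0.97 ± 0.09 in E13 buds and 0.61 ± 0.11 in E14 buds. Edem1 rose by 0.42 ± 0.08 in E13 buds and had 0.05 ± 0.09 in E14 buds. Translocation genes held 4 rises and 1 fall in E13 buds, with Srprb at 0.62 ± 0.11 and Sec63, an HSP40 of the channel, at -0.18 ± 0.06, and 5 rises in E14 buds, with Sec61g at 0.81 ± 0.11. Sec23b rose from 37.17 to 42.63 CPM to 56.95 to 59.09 CPM (0.50 ± 0.08), and Sar1b rose by 0.53 ± 0.07. In the same buds the summed acinar products, 9 of 14 tested, were 24.88 to 26.97 CPM in E13 controls and 65.74 to 71.20 CPM with NRG1, and 47.44 to 57.55 CPM and 146.7 to 162.7 CPM in E14 buds. Of the 9 tested, 4 were called higher and 1 lower, in E13 buds and again in E14 buds. The summed epithelial markers were 4429 to 5340 CPM in E13 controls and 4288 to 4748 CPM with NRG1, with 6 of 15 lower and 1 higher, and 5608 to 5792 CPM and 4656 to 5104 CPM in E14 buds, with 7 lower and none higher and no overlap. Summed cell cycle markers in E13 buds were 2302 to 2435 CPM in controls and 2506 to 2563 CPM with NRG1, with 5 of 14 higher and none lower. The part of these markers in the NRG1 response of the ER genes was not tested.

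Ero1lb had the largest fall in both. It had 10.09, 12.23 and 10.73 CPM in E13 controls and 5.535, 5.621 and 5.759 CPM with NRG1, and 10.19 and 11.64 CPM against 4.338, 5.518 and 4.950 CPM in E14 buds. All NRG1 samples lay below all controls, and Ero1lb fell by 0.96 ± 0.14 (adjusted p = 9.4e-05) and by 1.14 ± 0.16 (adjusted p = 8.3e-05). Both calls held in every fit that left out a sample. Ero1l rose in E13 buds by 0.27 ± 0.09 and had 0.21 ± 0.10 (adjusted p = 0.13) in E14 buds, and its E13 call remained in 1 of 6 such fits. Agr2 had -0.04 ± 0.28 and -0.62 ± 0.33, and Nucb2 0.23 ± 0.12 and 0.04 ± 0.14, none of them called.

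**Figure D3:**
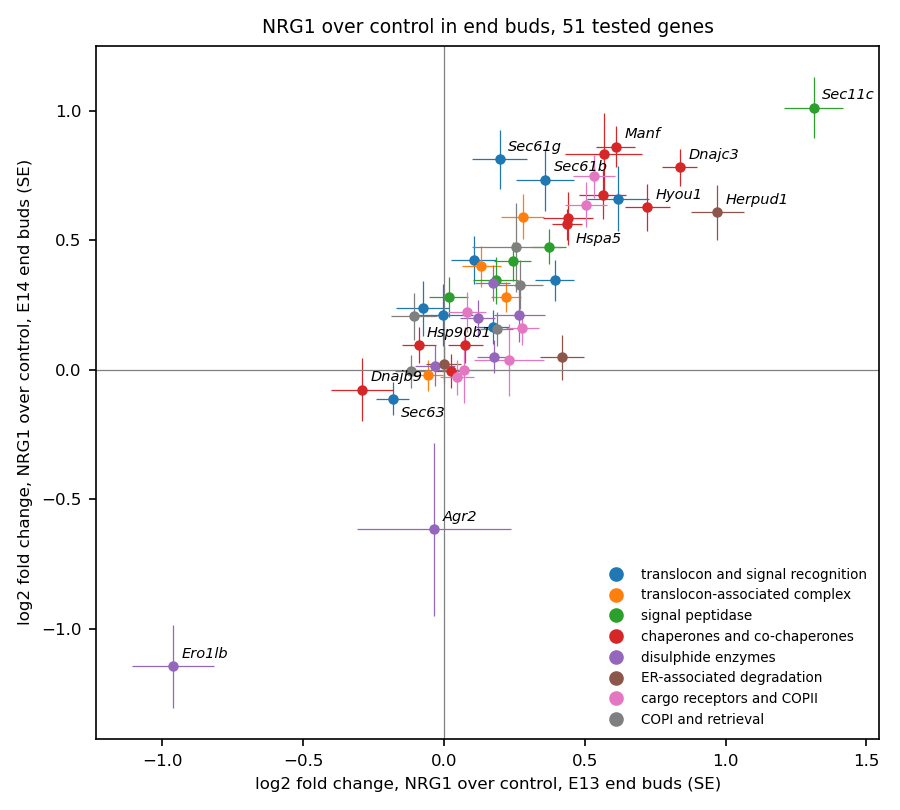
Log2 fold change of NRG1 over control in E13 end buds (x axis) and in E14 end buds (y axis) for the 51 tested genes, coloured by role, with SE bars. Sec11c lies at the upper right (1.31 and 1.01) and Ero1lb is the point farthest to the lower left (-0.96 and -1.14).

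The difference of the NRG1 effect between E14 and E13 buds was called for 1 gene, Sec61g, which is 1 higher against a background of 0.735% and none lower against a background of 1.53%. By edgeR's quasi-likelihood test 2 genes were lower at an unadjusted p under 0.05, and DESeq2 called 0. Sec61g had a difference of 0.61 ± 0.15 (adjusted p = 0.046) on the log2 scale, which was called in 3 of 11 fits that each left out a sample. Without E14 control B 4 genes were called, and none without E13 control A, B or C, E13 NRG1 B or C, E14 control C or E14 NRG1 A or B. E14 controls differed from E13 controls in 4 genes higher (background 14.4%) and 4 lower (background 9.20%), with Sec11c at 0.55 ± 0.12 and Sec61b at -0.47 ± 0.12. Without E14 control B, 2 were higher, and without E14 control C, 2 were lower. With total-count scaling the split was 5 higher and 3 lower. The 2 E14 controls had summed mesenchyme markers of 2266 and 6330 CPM, against 688.8 to 1069 CPM in E13 controls and 4709 to 5862 CPM in E14 buds with NRG1. Summed endothelial markers were 222.7 and 359.1 CPM in E14 controls and 245.8 to 332.0 CPM in E14 buds with NRG1. Summed erythroid markers were 137.8 and 653.4 CPM, and 601.3 to 662.5 CPM with NRG1. In E13 controls the 2 sums were 8.214 to 23.87 CPM and 9.218 to 26.04 CPM. The part of mesenchyme, vessels and blood in the E14 values was not tested.

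Other genes of the unfolded protein response moved in both directions in E13 buds, with 8 of 17 higher and 4 lower. The background there was 23.1% higher and 19.3% lower. Trib3, a target of the stress factors ATF4 and CHOP, rose by 3.76 ± 0.19. Bhlha15 (MIST1), a secretory cell transcription factor that is also in the list of acinar markers, fell by 1.69 on the log2 scale. Of 27 other COPII genes 14 rose and 1 fell, with Sec13, a subunit of the outer coat, at 1.19 ± 0.08.

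The TORIN1 comparison asks how mTOR inhibition over 72 h changes cultured epithelium. Of the 51 genes, 9 fell and none rose, where 3.36% of all tested genes were called lower and 2.46% higher. By edgeR's quasi-likelihood test 0 were higher at an unadjusted p under 0.05, 20 were lower, and DESeq2 called 0 higher and 14 lower. A negative log2 fold change was found for 47 of 51 genes, with a median of -0.23 against 0.02 over all genes. The summed level was 12020 to 12680 CPM with DMSO and 9004 to 11540 CPM with TORIN1, without overlap.

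Sec23b had the largest fall. It had 404.5, 385.2, 378.6 and 340.3 CPM with DMSO and 148.3, 187.2, 112.6 and 142.8 CPM with TORIN1. The groups did not overlap, and the log2 fold change was -1.35 ± 0.15 (adjusted p = 0.0034). Nucb2 had 121.0, 124.1, 123.7 and 113.2 CPM and then 82.07, 72.44, 41.71 and 59.10 CPM, a log2 fold change of -0.92 ± 0.18 (adjusted p = 0.024). Sdf2l1 had 42.38, 35.85, 30.80 and 31.45 CPM and then 27.68, 19.69, 16.34 and 17.59 CPM, without overlap, and fell by 0.79 ± 0.18 (adjusted p = 0.038). Sec11c had 128.0 to 143.2 CPM and then 71.73 to 116.4 CPM and fell by 0.56 ± 0.14 (adjusted p = 0.046).

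Edem1 (-0.56 ± 0.11), Spcs3 (-0.49 ± 0.10), Mcfd2 (-0.48 ± 0.11), Ssr3 (-0.44 ± 0.10) and Sec61a1 (-0.33 ± 0.08) made up the rest of the 9. None of the 7 disulphide enzymes and none of the 5 COPI and retrieval genes was called. Agr2 had 25.72, 23.43, 22.96 and 35.95 CPM with DMSO and 43.92, 25.95, 23.26 and 28.23 CPM with TORIN1, overlapping, with a log2 fold change of 0.17 ± 0.22 (adjusted p = 0.70). Hspa5 had 856.7 to 879.8 CPM and then 623.2 to 791.9 CPM, without overlap, but its change of -0.26 ± 0.10 did not pass the test (adjusted p = 0.18).

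The count of 9 depended on single libraries. It was 33 without TORIN1 A, 3 without DMSO D, 2 without TORIN1 C, and 1 without DMSO A, B or C or without TORIN1 D. Sec23b was called in all 8 of these fits, Nucb2 in 4, and each of the other 7 genes in 1 to 3. The TORIN1 A sample was above the other TORIN1 samples for Ssr4 (166.1 CPM against 93.05 to 101.3 CPM) and below them for Ero1l (38.63 CPM against 73.50 to 77.84 CPM). The summed acinar products were 32810 to 51740 CPM with DMSO and 8060 to 23020 CPM with TORIN1, with 4 of 12 tested lower and none higher. The summed cell cycle markers were 1647 to 1999 CPM and 1177 to 1614 CPM, without overlap, with 5 of 14 lower and none higher. The part of either list in the lower ER gene levels was not tested. Epithelial markers gave 8518 to 8936 CPM and 7316 to 9846 CPM, overlapping.

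Among other regulators of the unfolded protein response, 4 of 18 fell and 1 rose with TORIN1, with Trib3 at -1.04 ± 0.26 and Ern2 at 1.42 ± 0.16. The background was 3.36% lower and 2.46% higher. Of 27 other folding genes 2 fell and 1 rose, with Serp1 at -0.80 ± 0.13 and the isomerase Pdia5 at 0.97 ± 0.15. Tram1 was at -0.57 ± 0.11.

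The knockout comparison asks what depends on ERBB3 in the E16 gland. The targeted gene Erbb3 had 89.66, 69.61, 124.2 and 118.2 CPM in the WT libraries and 35.08, 32.02, 73.63 and 68.59 CPM in the libraries labelled KO. KO 3 lay above WT 2, and the log2 fold change of -0.94 ± 0.29 did not pass the test (adjusted p = 0.062). Which exons the allele removes is not given in the labels, so counts over the whole gene do not check the deletion.

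In the libraries labelled KO, 6 of the 51 genes fell and none rose, where 4.20% of all tested genes were called lower and 2.83% higher. By edgeR's quasi-likelihood test 3 genes were higher and 16 lower at an unadjusted p under 0.05, and DESeq2 called 1 higher and 9 lower. The median log2 fold change was -0.18 against -0.04 over all genes, and total-count scaling shifted the median of all genes by -0.11 and called 9 of the 51 lower. With that scaling, 1319 of all 14991 tested genes were called lower. The summed level was 7813 to 10460 CPM in WT and 8214 to 8874 CPM in KO libraries, overlapping.

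Agr2 had 31.43, 9.437, 9.730 and 9.282 CPM in WT and 0.441, 1.16, 1.43 and 2.06 CPM in KO libraries, the lowest from 4 reads. The groups did not overlap. The log2 fold change was -3.51 ± 0.52 (adjusted p = 0.017), and -2.87 (adjusted p = 0.0068) without WT 1. Sec23b had 220.7, 104.7, 114.6 and 100.5 CPM in WT and 57.25, 55.52, 61.78 and 70.02 CPM in KO libraries, again without overlap and with WT 1 far above the rest. It fell by 1.14 ± 0.23 (adjusted p = 0.033), and by 0.80 (adjusted p = 0.021) without WT 1. Nucb2 had 48.33, 39.06, 36.91 and 36.16 CPM against 21.73, 17.51, 25.84 and 22.36 CPM, and fell by 0.87 ± 0.16 (adjusted p = 0.025).

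Sel1l (-0.77 ± 0.18), Sec24d (-0.63 ± 0.15) and Dnajc3 (-0.58 ± 0.15) were the other 3 called lower. Sec24d had 86.54, 69.14, 102.7 and 83.06 CPM in WT and 45.56, 57.26, 55.25 and 62.15 CPM in KO libraries, without overlap. Sec11c had 61.68, 43.82, 32.81 and 32.45 CPM and then 26.59, 18.47, 39.52 and 29.78 CPM, overlapping, with -0.58 ± 0.25 (adjusted p = 0.13). Hspa5 had 546.8 to 782.8 CPM and 571.7 to 716.2 CPM, overlapping, with 0.02 ± 0.16 (adjusted p = 0.93). None of the 9 tested translocon and signal recognition genes, the 4 of the translocon-associated complex or the 5 of signal peptidase was called in the KO comparison.

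**Figure D4:**
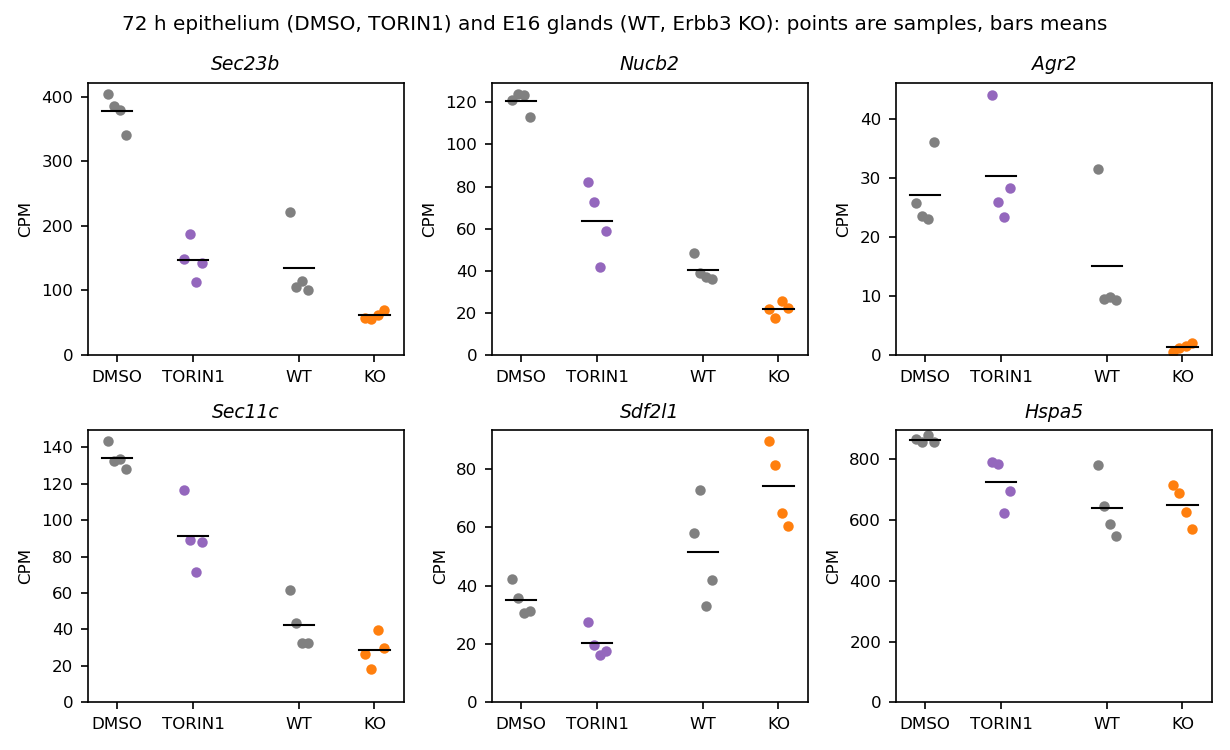
CPM (y axis, from 0) of 6 genes in DMSO and TORIN1 epithelium and in WT and Erbb3 KO E16 glands, with a point per sample and a bar at each group mean. Sec23b and Nucb2 do not overlap between the groups of either pair, Agr2 is separated only between WT and KO, and Hspa5 overlaps between WT and KO. The 2 pairs come from separate tables, so levels are comparable within a pair only.

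The 6 calls depended on single libraries too. The number lower was 10 without WT 2 (with 3 higher), 3 without WT 1 or WT 4, 2 without KO 3, 1 without WT 3 or KO 4, and 0 without KO 1 or KO 2. Agr2 was called in 6 of these 8 fits, Nucb2 in 4, Sec23b in 3, and Sel1l, Sec24d and Dnajc3 in 1 each. The summed acinar products were 1209 to 3102 CPM in WT and 315.4 to 671.4 CPM in KO libraries, with 5 of 11 tested lower. WT 1 had the 3102 CPM, and the other WT libraries had 1209 to 1521 CPM. The part of fewer acinar products in these changes was not tested. Of 15 epithelial markers, Ehf and Esrp1 were lower and Krt14 higher, 2 and 1, and the sums of the list were 3843 to 5452 CPM and 2847 to 4212 CPM, overlapping. WT 1 again had the highest sum, 5452 CPM, against 3843 to 4646 CPM in the other WT libraries. The summed Schwann cell markers were 424.9 to 691.9 CPM in WT and 699.0 to 810.6 CPM in KO libraries, without overlap, and 1 of 8, Fabp7, was higher. That list includes Erbb3 itself and does not mark Schwann cells alone. It summed to 1246 to 1314 CPM in separated E13 control end buds and to 306.4 to 336.5 CPM in whole E13 glands. Macrophage markers summed to 227.0 to 270.3 CPM and 262.2 to 486.4 CPM, with 3 of 12 higher (C1qa, C1qb and C1qc) and none lower. Neuron markers summed to 181.0 to 248.2 CPM and 231.7 to 353.2 CPM, with 2 of 11 higher (Phox2a and Uchl1). The part of these cell types in the ER gene changes was not tested.

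Of the 18 other regulators of the unfolded protein response, 6 fell and none rose in the libraries labelled KO, with Ern2 at -3.36 ± 0.56 and Bhlha15 at -2.26 ± 0.39. The background was 4.20% lower and 2.83% higher. Serp1 (-0.81 ± 0.17) and Dnajc10 (-0.79 ± 0.19), an HSP40 with thioredoxin domains, were the 2 of 27 other folding genes that fell.

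Across comparisons, the change of a gene followed its length in some and not in others. Spearman's correlation between summed exon length and log2 fold change was -0.58 over the 51 genes and -0.50 over all genes from E14 to E15, and -0.50 and -0.49 in the KO comparison. It was -0.01 and -0.04 in the TORIN1 comparison and -0.33 and -0.31 from E13 to E18. These values are across genes, which share libraries and are not independent replicates. From E14 to E15 the 17 shortest of the 51 genes, up to 2856 bases of exon, had a median of 0.34, and the 17 longest, from 4842 bases, had -0.35.

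In the KO comparison the same medians were 0.00 and -0.46. With the length trend removed, an alternative chosen after seeing the data, 8 genes rose and 12 fell from E14 to E15, and 2 fell in the libraries labelled KO, Agr2 (-3.90) and Nucb2 (-1.11). Sec23b then had -0.99 (adjusted p = 0.068). From E13 to E18 the counts were again 35 higher and 7 lower, but 36 of the calls were shared with those given above. Ssr1 turned from -0.19 to 0.34 (adjusted p = 0.0031), and Sec61g (0.61), Srp14 (-0.09), Hspa5 (-0.19), Dnajb9 (0.17) and Sar1b (-0.08) lost their calls, at adjusted p from 0.055 to 0.36. TORIN1 gave 17 lower, with Sec23b at -1.34, where 969 of all 14985 tested genes were lower. Length and the condition cannot be told apart for the genes that lost their call.

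**Figure D5:**
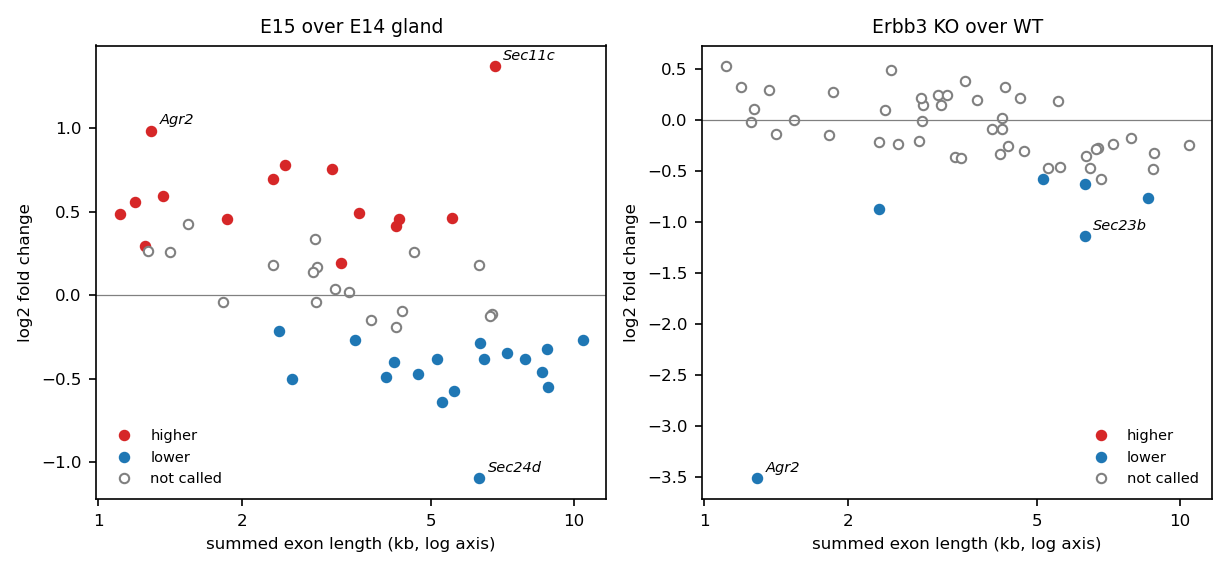
Log2 fold change (y axis) against summed exon length in kb (log x axis) for the 51 tested genes from E14 to E15 (left) and in Erbb3 KO over WT (right), with filled symbols for called genes. Short genes lie higher and long genes lower in both panels, while Agr2, a short gene, lies at -3.51 in the KO panel and Sec11c, a long gene, at 1.37 in the E15 panel.

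The culture set asks how epithelium in NRG1 changes with days. The choice of its 5179 genes is not described in the labels, so shares called are read within the table only. Between days 2 and 4, 19 of 29 genes rose and 8 fell, where 48.7% of the tested genes were called higher and 43.0% lower. Tmed3 had 119.6 and 136.9 CPM on day 2, 192.7 and 214.0 CPM on day 3 and 243.0 and 269.6 CPM on day 4, and rose by 1.00 ± 0.09 (adjusted p = 0.00021). Agr2 had 101.9 and 99.95 CPM, then 75.85 and 107.2 CPM, then 38.55 and 35.99 CPM, and fell by 1.44 ± 0.16 (adjusted p = 0.00035). Sec24d had 209.1 and 219.6 CPM on day 2 and 124.2 and 107.6 CPM on day 4 and fell by 0.89 ± 0.09 (adjusted p = 0.00027).

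Days 2 and 4 did not overlap for these 3 genes. Herpud1 (0.55 ± 0.06), Mcfd2 (0.51 ± 0.08), Sec23b (0.49 ± 0.08) and Nucb2 (0.49 ± 0.08) rose, and Hyou1 (-0.39 ± 0.06), Kdelr3 (-0.36 ± 0.10) and Creld2 (-0.32 ± 0.07) fell. From day 2 to 3, 8 rose (background 24%) and 5 fell (background 25.3%), and from day 3 to 4, 10 rose (background 24.6%) and 4 fell (background 22.0%). With total-count scaling, which shifted the median of all tested genes by -0.13 between days 2 and 4, the splits were 12 higher and 8 lower over days 2 to 4, 4 and 6 over days 2 to 3, and 2 and 4 over days 3 to 4. With DESeq2 size factors they were 14 and 8, 4 and 6, and 5 and 4. Leaving out 1 of the 2 samples of a day gave 12 to 20 higher between days 2 and 4. It gave 0 to 6 higher and 0 to 6 lower between days 2 and 3, and 1 to 7 higher and 2 to 3 lower between days 3 and 4. The summed acinar products were 8438 to 10120 CPM on day 2 and 96490 to 97950 CPM on day 4, with 9 of 11 tested higher and 2 lower. Their part in the changes of the ER genes was not tested.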

How the data were processed

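The authors deposited raw counts per gene in 5 tables. According to the submitters' processing notes, fastp, STAR and featureCounts were used on mm10. Neither tool versions, annotation nor strand setting is stated there, so counts of overlapping genes, antisense partners and near-identical copies are uncertain. The culture table held 8 entries whose symbol had become a date, with 0.123% of its counts, and these were left out. That table covers part of a library, so its column totals do not give depth.

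Tests on the deposited counts used the robust quasi-likelihood F test of edgeR 4.0.16 (R 4.3.3), with TMM scaling and the filterByExpr default. Each table was fitted once with all its groups, and p-values were adjusted by the Benjamini-Hochberg method over all genes tested in that table. The SE of a log2 fold change was taken as its absolute value over the root of the F statistic. RPKM divides CPM by summed exon length. The steps were tested on simulated data with known changes. Alternatives were DESeq2 1.42.0 (Wald test, and its size factors within edgeR), scaling by total counts, no filter on low counts, the compared groups alone, the replicate number as a block, leaving out each sample, and, chosen after seeing the data, removal of a length trend and the culture column prefix as a block.

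The 52 genes, the other lists and the rule for named genes were chosen with earlier results of these data known. The rule took anchor genes for each role, the 3 largest called changes of 5 comparisons, the largest against the majority there, and the largest of each role group, 22 genes in all. Other genes given with values were chosen after their values were seen.

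Groups follow sample titles. For end buds titled E14 the stage label reads E13 with 4 h added, and for NRG1 C it reads E13 with 72 h, so the names E13 and E14 used here are those of the titles. In the end bud table the letter S in a column name was taken as NRG1 and C as control. Culture columns give the day but could not be tied to a numbered sample.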

Additional observations from a re-analysis of the deposited data

Results flagged for a closer look

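For the 22 named genes, 220 groups of 4 samples were screened for a sample far from the other 3, and 25 such samples were found. Chance gives about 1 in 20 groups, and 9 of the 25 samples were E18 D in different genes. No explanation was tested.

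E18 D stood far from the other E18 glands in 9 genes. It was highest for Sec61b (1114 CPM), Sec11c (434.7 CPM), Hspa5 (959.1 CPM), Hsp90b1 (657.0 CPM), Creld2 (153.9 CPM), Kdelr2 (266.4 CPM) and Tmed3 (1036 CPM). It was lowest for Lman1 (181.5 CPM) and Sec24d (19.64 CPM). E18 B was highest for Dnajb9 (33.42 CPM).

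WT 1 of the knockout set was highest of its group for Agr2 (31.43 CPM), Sec23b (220.7 CPM) and Kdelr2 (297.5 CPM). TORIN1 A was highest for Ssr4 (166.1 CPM) and lowest for Ero1l (38.63 CPM), and DMSO D was lowest for Herpud1 (65.55 CPM).

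In the earlier glands, E13 D was highest for Sec11c (17.15 CPM) and E13 C lowest for Lman1 (204.5 CPM). E14 A was lowest for Ssr4 (44.18 CPM), and E14 C was highest for Lman1 (228.7 CPM). E15 B was lowest for Sdf2l1 (32.65 CPM) and highest for Kdelr3 (45.42 CPM). E16 C was lowest for Herpud1 (65.37 CPM) and E16 B lowest for Copb2 (235.2 CPM), and E17 C was highest for Agr2 (46.35 CPM).

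The NRG1 effect on Sec61g was larger in E14 than in E13 end buds, by 0.61 on the log2 scale (adjusted p = 0.046 in a test of the difference with edgeR). The call was lost with a replicate block, with DESeq2 size factors and with the length trend removed (adjusted p = 0.092), and was kept in 3 of 11 fits that each left out a sample (0.51 to 0.75).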

How the results depend on the processing

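Of 268 called results for single genes and comparisons, 248 kept direction and call with DESeq2 size factors, 253 with the DESeq2 Wald test, 249 without the filter on low counts, 213 with total counts and 216 with the length trend removed. Fits that left out a sample kept 1427 of 1762. The counts below are genes of the list, and the cause of a difference was not tested.

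With total counts, 14 genes were lower from E13 to E18, 3 lower from E13 to E14 and 12 lower from E17 to E18. Of all 16521 tested genes, 7906, 1142 and 3368 were lower in these comparisons. In culture 4 were higher over days 2 to 3, 2 over days 3 to 4 and 12 over days 2 to 4. Dnajb11 turned to -0.0405 (E13 to E18). With DESeq2 size factors, 2 were lower from E13 to E14, 0 had a larger NRG1 effect in E14 buds, 4 were higher over days 2 to 3 and 5 over days 3 to 4. With the DESeq2 Wald test, 2 were lower from E13 to E14, 14 lower with TORIN1, 1 higher in KO, 5 higher over days 2 to 3 and 6 over days 3 to 4.

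With the length trend removed, 3 were higher and 2 lower from E13 to E14, 8 higher from E14 to E15, 20 higher from E16 to E17 and 5 lower from E17 to E18. The NRG1 effect differed for 0, TORIN1 lowered 17, KO lowered 2, and 5 were higher over days 2 to 3 and 6 over days 3 to 4. Of all tested genes, 969 of 14985 were then lower with TORIN1 and 113 of 14991 in KO. Signs turned from E13 to E18 for Srp14 (-0.0937), Ssr1 (0.34) and Sar1b (-0.0822), from E14 to E15 for Sec63 (0.0699), Ssr1 (0.21) and Sar1b (-0.17), and over days 2 to 4 for Sec61b (-0.0145) and Srp14 (-0.22). With only the compared groups in the fit, 3 were lower from E13 to E18, 3 higher and 9 lower from E13 to E14, 24 higher from E16 to E17, 3 higher and 1 lower from E17 to E18, 1 higher between end bud controls, and 4 higher and 2 lower over days 3 to 4. That alternative repeats the same fit for TORIN1 and KO and was not run for the difference of NRG1 effects.

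With a replicate block, 0 genes differed in NRG1 effect, in place of 1, while E13 to E18 gave 35 higher and 7 lower, TORIN1 9 lower and KO 4 lower. In no comparison with 3 or more pairs were all correlations of same-numbered samples over 0.1, so the numbers were not taken to pair the samples. With TORIN1 and DMSO they were 0.36, 0.25 and 0.43 for A, B and D, each best with its own number, and -0.12 for C. Culture columns carry no sample number, but their prefix repeats on each day. With it as a replicate block, chosen after seeing the data, 6 genes were higher and 4 lower over days 2 to 3, 9 and 4 over days 3 to 4, and 20 and 8 over days 2 to 4.

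Leaving out each sample in turn gave 1 to 2 higher and 0 to 2 lower from E13 to E14, 8 to 16 higher from E14 to E15, and 5 to 11 higher and 2 to 8 lower from E17 to E18. In end buds it gave 17 to 24 higher and 1 to 3 lower with NRG1 at E13, 0 to 4 for the difference of NRG1 effects, and 2 to 6 higher and 2 to 4 lower between controls. It gave 1 to 33 lower with TORIN1, and 0 to 3 higher and 0 to 10 lower in KO. In culture it gave 0 to 6 higher and 0 to 6 lower over days 2 to 3, 1 to 7 higher and 2 to 3 lower over days 3 to 4, and 12 to 20 higher over days 2 to 4. Where this left a culture day with 1 sample, that sample is assumed to vary like the others. Low counts of Agr2 limit its precision at E13 and in KO.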
